A study of Danio rerio with 12 samples.

Results

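Fibroblast growth factor (FGF) pathway genes were followed through sorted cells of the adult zebrafish brain after amyloid-β42 (AB42) or the control peptide, CPP, had been injected. The genes were chosen by their symbol, as every FGF ligand, FGF receptor or FGF receptor-like gene, FGF-binding protein, glypican, FLRT gene, FRS adaptor, beta-klotho, SPRY or SPRED gene, DUSP6, IL17RD and ETS factor ETV1, ETV4 or ETV5 with at least 1 count. Such a symbol was carried by 76 of the 31953 genes deposited, and 73 of these had a count. The other 3, FGF19, fgf21 and one GPC6 gene (ENSDARG00000103156), were at 0 in all 12 libraries. All fish were Tg(her4.1:EGFP) animals aged 6 months, in which the promoter of the Notch target her4.1 drives EGFP in radial glia, the neural stem cells of this brain. Brains were taken 48 hours after a cerebroventricular injection, dissociated and sorted into cells with and without GFP. The 4 groups were AB42 GFP-positive, CPP GFP-positive, AB42 GFP-negative and CPP GFP-negative cells, with 3 libraries each. Uninjected brains are not among the groups, and the labels call the amyloid peptide AB42, AB-42 or TR-Aβ42. Whether the 3 libraries of a group came from separate fish or pools, and whether a brain gave both fractions, is not stated in the labels. The p-values therefore measure the spread between libraries, which may be technical.

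FGFs are secreted proteins that bind receptor tyrosine kinases together with heparan sulphate chains, such as those on glypicans. The receptors pass the signal through FRS adaptors to RAS and the MAP kinases, which raise the ETS factors ETV4 and ETV5 and a set of inhibitors (Sprouty, Spred, DUSP6 and IL17RD) that damp the same pathway. In the adult zebrafish brain the pathway is known to act on the radial glia that line the ventricles, where it supports the proliferation of progenitors.

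Total counts per library lay between 9262838 and 15584769, and a library's floor of 3 counts was 0.164 to 0.326 CPM (counts scaled to library size with TMM factors, as everywhere below). The gene her4.1, whose promoter drives the EGFP, averaged 1892 ± 120.3 CPM in AB42 GFP-positive, 2277 ± 176 CPM in CPP GFP-positive, 28.9 ± 1.03 CPM in AB42 GFP-negative and 32.3 ± 1.49 CPM in CPP GFP-negative cells (SD, n = 3). Radial glia markers summed over 20 genes to 47156 to 50717 CPM in AB42 GFP-positive, 55118 to 59458 CPM in CPP GFP-positive, 2948 to 3005 CPM in AB42 GFP-negative and 2737 to 2873 CPM in CPP GFP-negative libraries. In these and the other lists below the first 3 matched markers of each list all had counts in every group, except the globin hbae3 at 0 in AB42 GFP-positive cells. Neuron markers summed over 23 genes to 1028 to 1070 CPM in AB42 GFP-positive, 1336 to 1385 CPM in CPP GFP-positive, 4855 to 5081 CPM in AB42 GFP-negative and 7159 to 7421 CPM in CPP GFP-negative libraries. Microglia and macrophage markers summed over 27 genes to 2742 to 2914 CPM in AB42 GFP-positive, 2991 to 3226 CPM in CPP GFP-positive, 9797 to 10303 CPM in AB42 GFP-negative and 3303 to 3616 CPM in CPP GFP-negative libraries. In that list apoeb, a gene that radial glia also express, held 61.8% and 53.4% of the sum in the AB42 and CPP GFP-positive libraries. Oligodendrocyte markers (13 genes) summed to 4416 to 4839 CPM in AB42 GFP-positive, 5948 to 6361 CPM in CPP GFP-positive, 18186 to 18855 CPM in AB42 GFP-negative and 14272 to 15552 CPM in CPP GFP-negative libraries. The dissociation stress list (15 genes) summed to 37661 to 38271 CPM in AB42 GFP-positive, 32265 to 32831 CPM in CPP GFP-positive, 26364 to 27718 CPM in AB42 GFP-negative and 15693 to 16013 CPM in CPP GFP-negative libraries. In the same group order, vessel markers summed to 284 to 295, 284 to 287, 213 to 222 and 138 to 143 CPM. Meningeal markers summed to 621 to 653, 555 to 589.6, 161 to 172 and 102 to 107 CPM. Leukocyte markers summed to 32.2 to 37.3, 29.8 to 33.7, 217 to 234 and 123 to 137 CPM. Epithelial markers summed to 341 to 369.9, 382 to 399, 1652 to 1856 and 1384 to 1456 CPM. Ependymal markers summed to 299 to 309, 227 to 229, 34 to 39.7 and 35.3 to 38.7 CPM. Erythrocyte markers summed to 0.501 to 1.2, 1.84 to 2.53, 44 to 56.4 and 34.4 to 44.8 CPM. DCN held 94.4% and 93.8% of the meningeal sum in AB42 and CPP GFP-positive libraries, and TAGLN 46% and 46.7% of the vessel sum. By gene, 11 of 15 meningeal markers were lower and 3 higher in GFP-positive cells after AB42, and 8 lower and 5 higher after CPP. Of 17 vessel markers tested 12 were lower and 4 higher after AB42, and 11 lower and 4 higher after CPP. Over all genes 37.7% were lower and 36% higher after AB42, and 35.9% and 37.1% after CPP. In AB42 GFP-positive libraries MMP9 held 84.1% of the leukocyte sum and krt8 88.9% of the epithelial sum. After CPP the top genes there were ighm (37.4%) and krt8 (53%). After AB42 in GFP-positive cells, 4 of 11 leukocyte markers tested fell and 1 rose, and 8 of 12 epithelial markers fell and 2 rose. Over all genes tested 12.5% fell and 6.21% rose. In GFP-positive cells ighm averaged 0.344 CPM after AB42 and 11.7 CPM after CPP, and krt5 12.5 and 102 CPM. The marker sums moved with both the fraction and the injection, and their part in the FGF results was not tested. In such bulk libraries fewer cells of a type and less RNA per cell cannot be told apart.

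The 73 genes comprise 23 secreted ligands, 6 intracellular FGFs, 5 binding proteins, 6 receptors, 2 receptor-like genes without a kinase, 1 klotho co-receptor, 9 glypicans, 4 FLRT genes, 3 FRS adaptors, 9 feedback inhibitors, 4 ETS factors and FGFR1OP2. The last is no component of the pathway and is kept only because its symbol fits. The low-count filter left 61 of them to test among 20237 genes. The 12 that did not reach it had 3 to 83 counts over all libraries and at most 0.807 CPM in any group, and 9 of them were ligands: one FGF10 gene (ENSDARG00000100475), FGF16, fgf17, one FGF18 gene (ENSDARG00000088048), one FGF20 gene (ENSDARG00000086070), fgf23, FGF5, one FGF6 gene (ENSDARG00000045856) and fgf9. The other 3 were the binding protein fgfbp2b, the co-receptor klb and a second GPC6 gene. A mean of 5 CPM in at least 1 group was reached by 43 members but by only 5 of the 23 ligands, and the highest group mean was 10.0 CPM for a ligand and 189 CPM for a receptor. The members held 0.359 to 0.369% of all counts in AB42 GFP-positive, 0.358 to 0.37% in CPP GFP-positive, 0.142 to 0.148% in AB42 GFP-negative and 0.194 to 0.207% in CPP GFP-negative libraries. A single gene, the carrier fgfbp3, made up 37.7% of the member counts in AB42 GFP-positive and 39.7% in CPP GFP-positive cells, against 0.494% in AB42 GFP-negative and 0.482% in CPP GFP-negative cells. By their deposited positions 17 of the 73 genes lie on chromosome 14.

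The comparison of the fractions asks where in the brain the pathway's transcripts lie. After CPP all 6 receptors, 7 of 14 ligands tested, 6 of 9 feedback inhibitors and 4 of 8 glypicans tested were higher in GFP-positive cells, while 5 of 6 intracellular FGFs and 3 of 4 ETS factors were lower. Several of these ligands, FGF3, FGF4, fgf2, FGF22, fgf1b and FGF8 of chromosome 1 among them, passed the low-count filter only through GFP-positive libraries. Members low in GFP-positive cells, such as fgfbp1a, fgfbp2a, fgf7 and FGF20 of chromosome 1, passed it only through GFP-negative ones. In all 29 of 61 members (47.5%) were higher and 21 (34.4%) lower, against 37.1% and 35.9% of all genes tested (edgeR quasi-likelihood test, Benjamini-Hochberg adjusted p under 0.05). After AB42 27 members (44.3%) were higher and 23 (37.7%) lower, against 36% and 37.7% of all genes. In either direction 50 of 61 members (82%) were called after each injection, against 73.7% of all genes after AB42 and 73% after CPP. The median log2 fold change of the members was 0.06 after AB42 and 0.21 after CPP, and that of all genes was -0.01 after AB42 and 0.01 after CPP. Of the 50 members called after AB42 and the 50 called after CPP 46 were shared, which is 92% of each list, and 26 of these were higher in both, 19 lower in both and ETV4 opposite. Over all genes tested 12725 were shared, which is 85.4% of those called after AB42 and 86.1% of those called after CPP. Of these 6227 were higher in both, 6181 lower in both and 317 opposite. Scaling to library totals in place of TMM moved the median of all genes by -0.25 after AB42 and -0.48 after CPP. It gave 27 higher and 27 lower members after AB42, and 24 higher and 28 lower after CPP. Of the 20237 genes tested it gave 5452 higher and 9280 lower after AB42, against 7286 and 7622 with TMM. After CPP it gave 4630 higher and 10673 lower genes, against 7517 and 7265 with TMM.

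**Figure D1:**
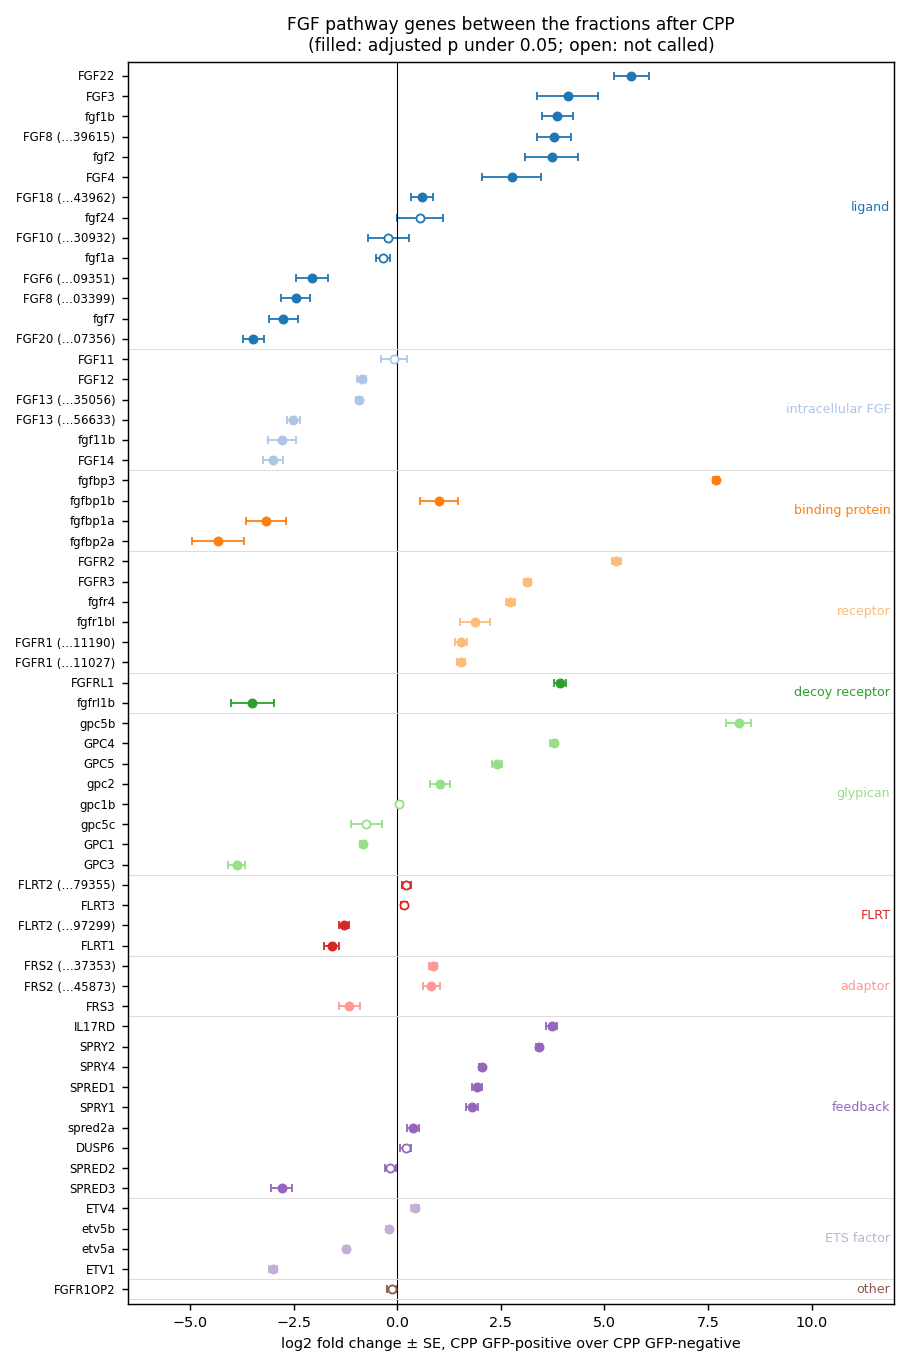
Log2 fold change of CPP GFP-positive over CPP GFP-negative cells for the 61 members tested, grouped by role, with bars of 1 SE from 3 libraries a group. Genes that share a symbol carry the last digits of their identifier. The 6 receptors lie right of 0, between 1.54 and 5.29, and 5 of the 6 intracellular FGFs lie left of it with filled points.

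In GFP-positive cells, the fraction sorted for radial glia, AB42 and CPP were compared 48 hours after the peptide. All 4 ETS factors fell, by 0.28 to 0.49 on the log2 scale, while the receptor genes fgfr4 and FGFR1 of chromosome 10, the adaptor FRS2 of chromosome 4 and the inhibitor SPRY4 rose. Of 61 members 4 (6.56%) rose and 13 (21.3%) fell, against 6.21% and 12.5% of all genes tested. Together 17 members (27.9%) were called, against 18.7% of all genes. The median log2 fold change was -0.10 over the members and -0.06 over all genes. In the same AB42 libraries neuron markers were lower, at 1028 to 1070 CPM against 1336 to 1385 CPM after CPP. Oligodendrocyte markers were lower too, at 4416 to 4839 CPM against 5948 to 6361 CPM. The radial glia sum was lower as well, at 47156 to 50717 CPM against 55118 to 59458 CPM. By gene, 7 of 19 radial glia markers tested fell and 4 rose, with a median log2 fold change of -0.07. GFAP was among those that rose, at 293 CPM after AB42 and 190.3 CPM after CPP. The dissociation stress, ependymal and meningeal sums given above were higher. By gene, 10 of 15 dissociation stress markers rose and 2 fell. Of 10 ependymal markers tested 2 rose and 1 fell, and of 15 meningeal markers 1 rose and 0 fell. FOXJ1 alone held 52.8% of the ependymal sum after AB42 and 36.8% after CPP. The part of these markers in the member changes was not tested. Library totals moved the median of all genes by 0.10 and left 4 members higher and 8 lower. Of the 20237 genes tested they gave 2112 higher and 1769 lower, against 1256 and 2523 with TMM. The count of members that rose was 2 without any 1 of AB42 GFP-positive replicates 1 and 2 and CPP GFP-positive replicate 3.

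The same comparison in GFP-negative cells covers everything the sort left behind, among it neurons, oligodendrocytes and microglia. There etv5a fell 2.64-fold. ETV1, etv5b, the intracellular FGFs FGF12 and FGF13 of chromosome 14 and the ligand FGF8 of chromosome 13 also fell. ETV4, 3 Sprouty genes, fgfr4, both FGFR1 genes and the ligands fgf7 and FGF22 rose. Of 61 members 10 (16.4%) rose and 15 (24.6%) fell, against 20.9% and 17.3% of all genes tested. Together 25 members (41%) were called, against 38.2% of all genes, and the median log2 fold change was -0.01 for members and for all genes. Microglia markers were higher in the same AB42 libraries, at 9797 to 10303 CPM against 3303 to 3616 CPM after CPP, and neuron markers lower, at 4855 to 5081 CPM against 7159 to 7421 CPM. Dissociation stress markers summed to 26364 to 27718 CPM against 15693 to 16013 CPM after CPP, and 15 of 15 rose. Of 13 oligodendrocyte markers 9 rose and 0 fell. Of 15 meningeal markers 9 rose and 0 fell, and of 17 vessel markers tested 9 rose and 0 fell. The part of all these markers in the member changes was not tested. Library totals moved the median of all genes by -0.13 and gave 7 higher and 19 lower members. Of the 20237 genes tested they gave 3191 higher and 5463 lower, against 4239 and 3494 with TMM. Without AB42 GFP-negative replicate 2 the count of members that rose was 6. Of the 17 members called in GFP-positive and the 25 called in GFP-negative cells 11 were shared (64.7% and 44% of the lists): 3 rose in both, 7 fell in both and ETV4 moved in opposite directions. Over all genes tested 2314 were shared, which is 61.2% of those called in GFP-positive and 29.9% of those called in GFP-negative cells. Of these 731 rose in both, 1055 fell in both and 528 moved in opposite directions.

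**Figure D2:**
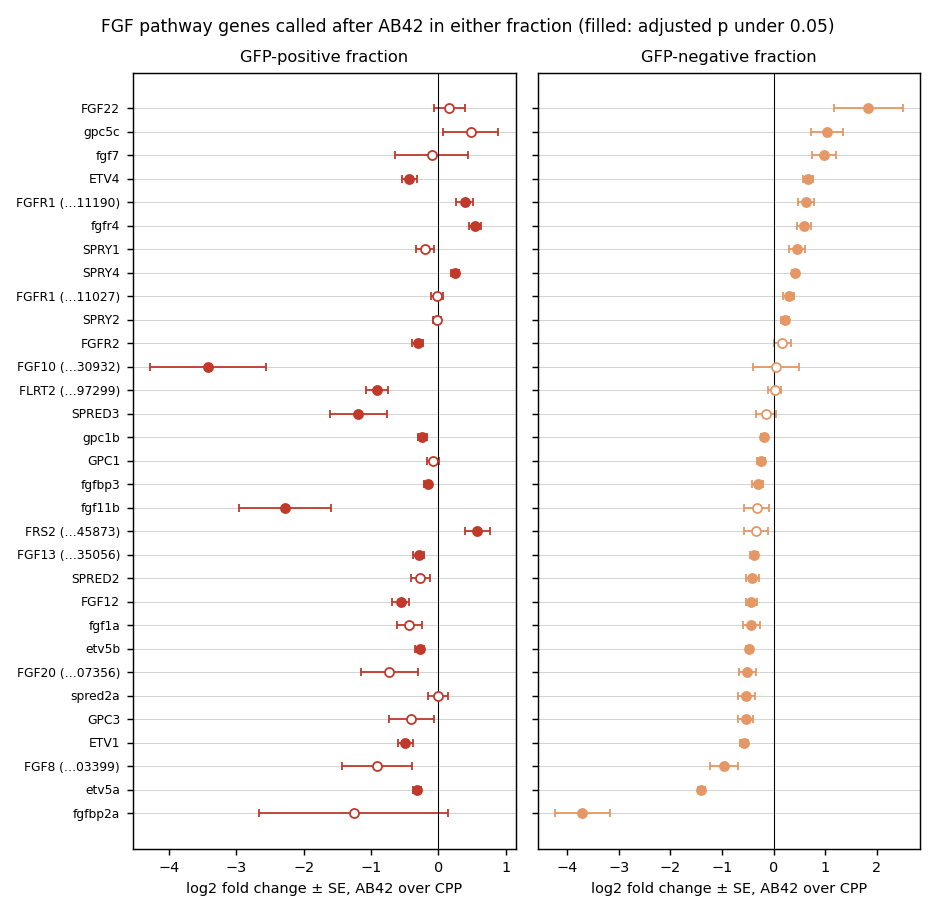
Log2 fold change of AB42 over CPP for the 31 members called in at least 1 fraction, in GFP-positive cells (left panel) and GFP-negative cells (right panel), with bars of 1 SE from 3 libraries a group and separate horizontal scales. Filled points passed an adjusted p of 0.05, and ETV4 is filled on opposite sides of 0 in the panels.

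All 6 FGF receptors, the kinases that bind the secreted ligands, were higher in GFP-positive cells after both injections. Of all genes tested 36% were higher there after AB42 and 37.1% after CPP. FGFR2 (ENSDARG00000058115, chr13:46162095-46292968, coordinates as deposited, with GRCz10 named in the submitters' processing notes) had 155, 151 and 152 CPM in the AB42 GFP-positive libraries and 189, 207 and 172 CPM in the CPP GFP-positive libraries. Its values were 6.52, 4.99 and 4.9 CPM in the AB42 GFP-negative libraries and 3.72, 5.99 and 4.65 CPM in the CPP GFP-negative libraries. Every GFP-positive library lay far above every GFP-negative one, 28-fold after AB42 (log2 4.81 ± 0.11, SE) and 39-fold after CPP (log2 5.29 ± 0.11, edgeR adjusted p = 1.92e-31). FGFR3 (ENSDARG00000004782, chr13:13085956-13163718) had 168, 164 and 146 CPM in the AB42 GFP-positive libraries and 159, 164 and 148 CPM in the CPP GFP-positive libraries. It had 18.3, 16.4 and 17.6 CPM in the AB42 GFP-negative libraries and 17.3, 19.1 and 16.9 CPM in the CPP GFP-negative libraries, so the fractions differed 9.16-fold after AB42 and 8.84-fold after CPP (edgeR adjusted p = 1.32e-28 and 2.43e-28). The receptor fgfr4 (ENSDARG00000069105, chr21:37498712-37509505) had 60.4, 68.9 and 60 CPM in the AB42 GFP-positive libraries and 44, 44.9 and 40.2 CPM in the CPP GFP-positive libraries. In cells without GFP it had 9.32, 10.7 and 9.25 CPM in the AB42 GFP-negative libraries and 6.98, 6.26 and 6.34 CPM in the CPP GFP-negative libraries, a 6.45-fold and a 6.63-fold difference of the fractions after AB42 and CPP.

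A pair of genes carries the symbol FGFR1. The gene of chromosome 10 (ENSDARG00000011190, chr10:42761087-42833263) had 31.1, 32.1 and 29.1 CPM in the AB42 GFP-positive libraries and 26.6, 23.3 and 20.3 CPM in the CPP GFP-positive libraries. Its GFP-negative values were 11, 14.5 and 11.8 CPM in the AB42 GFP-negative libraries and 6.35, 9.29 and 8.25 CPM in the CPP GFP-negative libraries. The gene of chromosome 8 (ENSDARG00000011027, chr8:51444068-51537939) had 47.2, 53 and 51.1 CPM in the AB42 GFP-positive libraries and 54.6, 49.2 and 49.3 CPM in the CPP GFP-positive libraries. It had 21.6, 22.9 and 19.7 CPM in the AB42 GFP-negative libraries and 18.3, 16.6 and 17.8 CPM in the CPP GFP-negative libraries. Both were higher in GFP-positive cells, by smaller folds than FGFR2 and FGFR3: 2.47-fold after AB42 and 2.91-fold after CPP on chromosome 10, and 2.35-fold and 2.91-fold on chromosome 8. The low fgfr1bl averaged 3.15 ± 0.341 CPM in AB42 GFP-positive, 2.14 ± 0.379 CPM in CPP GFP-positive, 1.01 ± 0.281 CPM in AB42 GFP-negative and 0.597 ± 0.19 CPM in CPP GFP-negative cells (SD, n = 3 each).

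Per kilobase of gene length the 6 receptors summed to 107 ± 4.65 CPM per kb in AB42 GFP-positive, 106 ± 6.94 in CPP GFP-positive, 16 ± 0.735 in AB42 GFP-negative and 13 ± 0.744 in CPP GFP-negative cells (SD, n = 3). On this scale FGFR3 held the largest share of the sum in every group, with 45.8 ± 1.58% and 45.8 ± 0.664% in AB42 and CPP GFP-positive cells and 33.8 ± 3.2% and 42.1 ± 1.11% in AB42 and CPP GFP-negative cells. FGFR2 followed in GFP-positive cells with 24.7 ± 1.09% after AB42 and 30.9 ± 1.1% after CPP, but held 5.95 ± 1.09% and 6.31 ± 1.15% in GFP-negative cells. There the chromosome 10 FGFR1 gene came second, with 27.1 ± 2.89% after AB42 and 21.3 ± 3% after CPP. The share of fgfr4 in GFP-positive cells was 11.7 ± 0.731% after AB42 and 8.12 ± 0.0682% after CPP. The order depends on the length scale. In plain CPM the chromosome 8 FGFR1 gene, FGFR3 and the chromosome 10 FGFR1 gene averaged 21.4, 17.4 and 12.4 in AB42 GFP-negative cells. They averaged 17.6, 17.8 and 7.96 CPM in CPP GFP-negative cells. In GFP-positive cells FGFR2 and FGFR3 averaged 153 and 159 CPM after AB42 and 189 and 157 CPM after CPP. Whether counts rise with gene length in these poly-dT primed libraries was not tested.

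After AB42 the receptors did not move together. In GFP-positive cells fgfr4 rose, and its AB42 and CPP libraries did not overlap (log2 fold change 0.55 ± 0.09, SE, edgeR adjusted p = 2.57e-05). It also rose in GFP-negative cells (log2 fold change 0.59 ± 0.13, SE, edgeR adjusted p = 0.00036), and the GFP-positive minus the GFP-negative effect was -0.04 ± 0.16 (SE, adjusted p = 0.901). The chromosome 10 FGFR1 gene rose in both fractions, at log2 fold change 0.39 ± 0.13 (SE, edgeR adjusted p = 0.0235) in GFP-positive and 0.63 ± 0.15 (adjusted p = 0.000661) in GFP-negative cells. In GFP-positive cells it passed no longer without any 1 of AB42 GFP-positive replicates 1 and 2 and CPP GFP-positive replicates 2 and 3 (0.31 to 0.39, adjusted p 0.0564 to 0.133). FGFR2 fell in GFP-positive cells, where all 3 AB42 libraries lay below all 3 CPP libraries (log2 fold change -0.31 ± 0.08, SE, edgeR adjusted p = 0.00331), and in GFP-negative cells it gave 0.17 ± 0.16 with overlapping libraries (adjusted p = 0.424). The fall of FGFR2 passed no longer with library totals in place of TMM (-0.22, adjusted p = 0.0706). FGFR3 gave 0.02 ± 0.07 in GFP-positive and -0.03 ± 0.09 in GFP-negative cells (adjusted p = 0.883 and 0.826). The chromosome 8 FGFR1 gene rose in GFP-negative cells (log2 fold change 0.29 ± 0.10, SE, edgeR adjusted p = 0.0217) and gave -0.02 ± 0.09 in GFP-positive cells (adjusted p = 0.923). The chromosome 8 gene passed no longer with library totals in place of TMM (0.16, adjusted p = 0.226). The call was also lost without any 1 of AB42 GFP-negative replicates 1 and 2 and CPP GFP-negative replicate 2 (0.22 to 0.28, adjusted p 0.0553 to 0.121). The fgfr1bl values were 0.55 ± 0.29 in GFP-positive and 0.82 ± 0.40 in GFP-negative cells (adjusted p = 0.2 and 0.102).

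**Figure D3:**
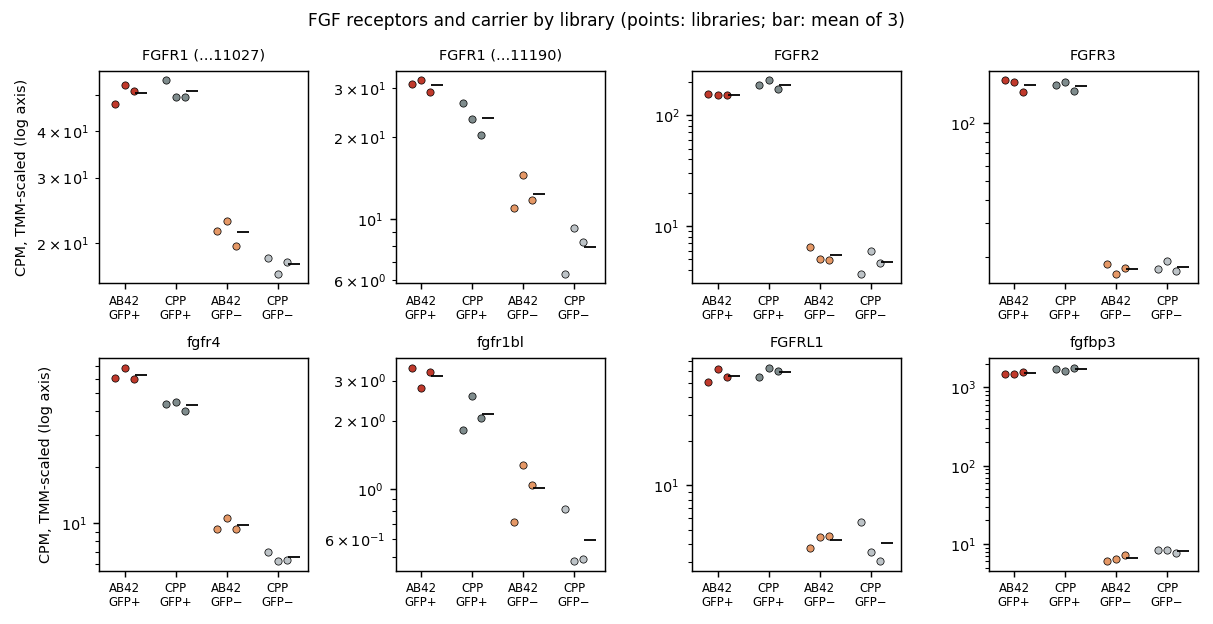
TMM-scaled CPM on log axes of 5 FGF receptors at 5 CPM or more, the low fgfr1bl, the receptor-like FGFRL1 and the carrier fgfbp3 in each of the 12 libraries (points) with the mean of the 3 libraries of a group (bar). Each vertical scale is its own, and the GFP-positive libraries of every gene shown lie above all of its GFP-negative ones.

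FGFRL1 (ENSDARG00000032617, chr14:17137260-17258120), a receptor-like protein that binds FGFs but lacks the kinase domain, had 50.3, 62.2 and 54.9 CPM in the AB42 GFP-positive libraries and 54.9, 63.3 and 60.1 CPM in the CPP GFP-positive libraries. It had 3.73, 4.44 and 4.49 CPM in the AB42 GFP-negative libraries and 5.62, 3.51 and 3.06 CPM in the CPP GFP-negative libraries. The fractions stood apart without overlap, by 13.2-fold after AB42 and 15.2-fold after CPP (edgeR adjusted p = 1.56e-23 and 5.28e-24), while the AB42 and CPP libraries of each fraction overlapped. Its paralogue fgfrl1b had the opposite distribution, with 0.605 ± 0.149 CPM in AB42 GFP-positive and 0.191 ± 0.181 in CPP GFP-positive cells, and 2.05 ± 0.872 in AB42 GFP-negative and 2.26 ± 0.567 CPM in CPP GFP-negative cells (SD, n = 3). It was lower in GFP-positive cells after both injections (log2 -1.71 ± 0.42 after AB42 and -3.50 ± 0.51 after CPP, SE). After AB42 fgfrl1b gave log2 1.62 ± 0.66 in GFP-positive cells, without overlap (edgeR adjusted p = 0.0864). That value passed without CPP GFP-positive replicate 2 (2.73, adjusted p = 0.0278).

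The carrier fgfbp3 (ENSDARG00000040162, chr17:23278904-23282297), a secreted protein that binds FGFs and releases them from the matrix, was the most abundant member. It had 1471, 1505 and 1593 CPM in the AB42 GFP-positive libraries and 1709, 1616 and 1793 CPM in the CPP GFP-positive libraries. Its values were 6.09, 6.39 and 7.31 CPM in the AB42 GFP-negative libraries and 8.43, 8.47 and 7.76 CPM in the CPP GFP-negative libraries, which put it 230.5-fold higher in GFP-positive cells after AB42 and 208-fold after CPP (edgeR adjusted p = 1.05e-41 and 1.42e-41). After AB42 it fell slightly in GFP-positive cells (log2 -0.16 ± 0.05, SE, edgeR adjusted p = 0.0184) and in GFP-negative cells (log2 -0.31 ± 0.10, adjusted p = 0.0205), with no overlap of libraries in either. In GFP-positive cells fgfbp3 passed no longer with library totals in place of TMM (-0.07, adjusted p = 0.262) or in a fit of the 2 groups alone (-0.12, adjusted p = 0.073). It did not hold either without any 1 of AB42 GFP-positive replicates 1 and 2, CPP GFP-positive replicates 1 and 3, AB42 GFP-negative replicate 3 and CPP GFP-negative replicates 1 and 2 (-0.16 to -0.11, adjusted p 0.0629 to 0.12). In GFP-negative cells it passed no longer with limma voom (-0.31, adjusted p = 0.185) or in a fit of the 2 groups alone (-0.32, adjusted p = 0.113). Nor did it pass without any 1 of AB42 GFP-negative replicates 1 and 2 (-0.28 to -0.26, adjusted p 0.0775 to 0.0983).

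The other binding proteins were low, at most 2.07 CPM in any group. The gene fgfbp1a was lower in GFP-positive cells after AB42 (log2 -3.87 ± 0.56, SE) and CPP (log2 -3.18 ± 0.48). Its neighbour fgfbp2a, 6611 bases away on chromosome 14, lay on the same side after CPP, with 3 counts in GFP-positive against 83 in GFP-negative cells (22.6-fold lower, 95% counting interval 7.48 to 112). In GFP-negative cells fgfbp2a had 0.215, 0.0609 and 0.138 CPM after AB42 against 1.45, 2.06 and 2.02 CPM after CPP, and fell without overlap (log2 fold change -3.71 ± 0.53, SE, edgeR adjusted p = 5.2e-07). Outside the CPP GFP-negative libraries fgfbp2a had at most 3 counts in any library. It passed the low-count filter only through the group where it was high, which limits both of these calls. The fraction call of fgfbp1b after CPP (log2 1 ± 0.46, adjusted p = 0.049) stood just under the threshold. The fgfbp1b difference passed no longer with DESeq2 (0.90, adjusted p = 0.153), with library totals in place of TMM (0.53, adjusted p = 0.309), in a fit of the 2 groups alone (0.96, adjusted p = 0.0563), with the replicate block (0.97, adjusted p = 0.0575) or with RLE size factors (0.94, adjusted p = 0.0642). The threshold was missed too without any 1 of AB42 GFP-positive replicates 1, 2 and 3, CPP GFP-positive replicates 1 and 2, AB42 GFP-negative replicates 1 and 3 and CPP GFP-negative replicates 2 and 3 (0.49 to 1.16, adjusted p 0.0512 to 0.346).

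The ligands split between the fractions. FGF22 (ENSDARG00000076510, chr22:19086466-19131354), in mammals a presynaptic organiser of the same subfamily as FGF7 and FGF10, had 11.4, 5.85 and 7.06 CPM in the AB42 GFP-positive libraries and 7.35, 6.48 and 8.1 CPM in the CPP GFP-positive libraries. It had 0.358, 0.609 and 0.552 CPM in the AB42 GFP-negative libraries and 0, 0.0688 and 0.273 CPM in the CPP GFP-negative libraries, with 0, 1 and 5 counts in the CPP GFP-negative libraries. The gene was 15.6-fold higher in GFP-positive cells after AB42 and 50.2-fold after CPP (edgeR adjusted p = 2.27e-13 and 1.33e-14). It passed the low-count filter only through its GFP-positive libraries. The fold after CPP rests on 6 GFP-negative counts, and no counting interval was computed for it. In GFP-negative cells FGF22 rose after AB42 (log2 fold change 1.84 ± 0.67, SE, edgeR adjusted p = 0.0273), on few counts. The rise of FGF22 passed no longer without any 1 of AB42 GFP-negative replicates 2 and 3 and CPP GFP-negative replicates 1 and 2 (1.42 to 1.76, adjusted p 0.0662 to 0.113). Without CPP GFP-negative replicate 3, which holds 5 of the 6 CPP counts, the fitted log2 fold change was 3.41. The ligand fgf1b (ENSDARG00000042811, chr21:44117748-44121075), whose product belongs to the acidic FGFs, had 5.34, 5.06 and 5.87 CPM in the AB42 GFP-positive libraries and 5.61, 5.44 and 4.1 CPM in the CPP GFP-positive libraries. It had 0.143, 0.791 and 0.207 CPM in the AB42 GFP-negative libraries and 0.181, 0.482 and 0.328 CPM in the CPP GFP-negative libraries, a 13.3-fold and 14.5-fold difference of the fractions after AB42 and CPP, while AB42 and CPP libraries overlapped in both fractions. This gene too passed the low-count filter only through its GFP-positive libraries.

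Its paralogue fgf1a (ENSDARG00000017542, chr14:23434704-23440429) was shared by the fractions, with 5.51, 4.59 and 5.98 CPM in the AB42 GFP-positive libraries and 6.4, 6.24 and 8.94 CPM in the CPP GFP-positive libraries. In cells without GFP the values were 5.88, 7.24 and 6.97 CPM in the AB42 GFP-negative libraries and 7.98, 9.77 and 9.24 CPM in the CPP GFP-negative libraries. The AB42 libraries lay below the CPP libraries in both fractions, with a log2 fold change of -0.43 ± 0.19 in GFP-positive (SE, edgeR adjusted p = 0.122) and -0.43 ± 0.17 in GFP-negative cells (adjusted p = 0.045), and only the second was called. There fgf1a passed no longer with DESeq2 (-0.45, adjusted p = 0.0546) or with every gene of at least 1 count (-0.42, adjusted p = 0.0628). The call ended as well without any 1 of AB42 GFP-negative replicates 1, 2 and 3 and CPP GFP-negative replicates 2 and 3 (-0.49 to -0.35, adjusted p 0.055 to 0.175). Between the fractions fgf1a gave -0.34 ± 0.19 after AB42 and -0.34 ± 0.17 after CPP (adjusted p = 0.106 and 0.0799). As lower after CPP it passed with library totals in place of TMM (-0.82, adjusted p = 8.62e-05), with RLE size factors (-0.40, adjusted p = 0.0391) or without any 1 of CPP GFP-positive replicate 3, AB42 GFP-negative replicate 3 and CPP GFP-negative replicate 1 (-0.51 to -0.41, adjusted p 0.0167 to 0.0355). After AB42 it passed with library totals in place of TMM (-0.59, adjusted p = 0.00531).

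FGF20 of chromosome 1 (ENSDARG00000007356, chr1:15700140-15701877), of the FGF9 subfamily and the ligand with the highest group mean, had 0.584, 0.474 and 0.543 CPM in the AB42 GFP-positive libraries and 0.711, 1.12 and 0.838 CPM in the CPP GFP-positive libraries. It had 7.46, 6.33 and 7.38 CPM in the AB42 GFP-negative libraries and 9.97, 8.6 and 11.5 CPM in the CPP GFP-negative libraries. The gene was 13-fold lower in GFP-positive cells after AB42 and 11.2-fold lower after CPP (edgeR adjusted p = 3.6e-14 and 3.07e-15). Every AB42 library lay below every CPP library within each fraction, and the fall was called in GFP-negative cells (log2 fold change -0.51 ± 0.17, SE, edgeR adjusted p = 0.0181) but not in GFP-positive ones (log2 -0.73 ± 0.42, adjusted p = 0.239). FGF20 of GFP-negative cells passed no longer without any 1 of AB42 GFP-negative replicate 2 and CPP GFP-negative replicate 3 (-0.44 to -0.39, adjusted p 0.094 to 0.137). The ligand fgf7 (ENSDARG00000059387, chr18:5405157-5424073), in mammals a mesenchymal growth factor for epithelia, had 0.334, 0.711 and 0.217 CPM in the AB42 GFP-positive libraries and 0.632, 0.48 and 0.279 CPM in the CPP GFP-positive libraries. In GFP-negative cells it had 7.67, 6.39 and 5.04 CPM in the AB42 GFP-negative libraries and 2.72, 3.3 and 3.55 CPM in the CPP GFP-negative libraries, and rose 1.97-fold without overlap (log2 fold change 0.98 ± 0.23, SE, edgeR adjusted p = 0.000902). Of its exon bases 107 are shared with another annotated gene on the same strand, to which its counts may in part belong. Its fraction difference was log2 -3.82 ± 0.34 after AB42 and -2.75 ± 0.36 after CPP (SE, adjusted p = 2.01e-12 and 1.96e-08). Meningeal markers moved the same way in GFP-negative cells, with 161 to 172 CPM after AB42 and 102 to 107 CPM after CPP, and their part in the rise of fgf7 was not tested.

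A pair of genes carries the symbol FGF8, a ligand of embryonic brain organisers, and the 2 lay on opposite sides of the sort. FGF8 of chromosome 1 (ENSDARG00000039615, chr1:30905706-30910934) averaged 4.34 ± 1.22 CPM in AB42 GFP-positive, 3.94 ± 0.626 CPM in CPP GFP-positive, 0.386 ± 0.23 CPM in AB42 GFP-negative and 0.295 ± 0.163 CPM in CPP GFP-negative cells (SD, n = 3). It was 11.3-fold higher in GFP-positive cells after AB42 and 13.8-fold after CPP, on few GFP-negative counts. It passed the low-count filter only through its GFP-positive libraries. FGF8 of chromosome 13 (ENSDARG00000003399, chr13:28364969-28371535) averaged 0.403 ± 0.395, 0.836 ± 0.035, 2.37 ± 0.181 and 4.65 ± 0.869 CPM in the same group order, and was 5.3-fold and 5.51-fold lower in GFP-positive cells. The chromosome 13 gene fell after AB42 in GFP-negative cells (log2 fold change -0.97 ± 0.27, SE, edgeR adjusted p = 0.00453), where its 3 AB42 libraries had 2.37, 2.19 and 2.55 CPM and its 3 CPP libraries 5.17, 3.65 and 5.14 CPM. As much as 1133 bases of its exons overlap a gene on the opposite strand, and no strand setting of the counting is given in the sources used here.

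The remaining ligands tested stayed under 4 CPM in every group. FGF3 and FGF4, which lie 7952 bases apart on chromosome 7, and the basic FGF gene fgf2 were higher in GFP-positive cells: FGF3 had 34 counts in GFP-positive against 2 in GFP-negative cells after AB42 (22.5-fold, 95% counting interval 5.77 to 193) and the same counts after CPP (20.8-fold, 5.33 to 179). FGF4 gave log2 3.79 ± 0.68 after AB42 and 2.76 ± 0.71 after CPP, and fgf2 2.82 ± 0.54 and 3.73 ± 0.64 (SE, adjusted p at most 0.000758). FGF3, FGF4 and fgf2 had at most 6 counts in any GFP-negative library. They passed the low-count filter only through their GFP-positive libraries and would not have been tested without those. FGF6 of chromosome 25 was lower in GFP-positive cells, at log2 -1.72 ± 0.43 after AB42 and -2.06 ± 0.38 after CPP, with 702 exon bases shared with an opposite-strand gene. FGF18 of chromosome 10, at 3.54 ± 0.721 CPM in CPP GFP-positive and 2.39 ± 0.522 CPM in CPP GFP-negative cells, was called higher in GFP-positive cells after CPP (log2 0.59 ± 0.26, adjusted p = 0.0397). FGF18 passed no longer with DESeq2 (0.53, adjusted p = 0.122), with library totals in place of TMM (0.11, adjusted p = 0.713), in a fit of the 2 groups alone (0.55, adjusted p = 0.0692) or with RLE size factors (0.53, adjusted p = 0.0654). The call was also lost without any 1 of CPP GFP-positive replicates 2 and 3, AB42 GFP-negative replicate 3 and CPP GFP-negative replicates 2 and 3 (0.40 to 0.57, adjusted p 0.0714 to 0.207). The ligand fgf24 was not called in any comparison, with log2 fold changes between -0.26 and 0.89. FGF10 of chromosome 21 (ENSDARG00000030932, chr21:19612178-19645986), a mesenchymal ligand of limb and lung buds in mammals, had 2, 0 and 0 counts in the AB42 GFP-positive libraries and 8, 12 and 6 counts in the CPP GFP-positive libraries, a sum of 2 against 26 (12.3-fold lower, 95% counting interval 3.07 to 107). This fall was called by edgeR (adjusted p = 0.00356), and in GFP-negative cells the gene averaged 0.887 ± 0.413 CPM after AB42 and 0.836 ± 0.412 CPM after CPP. The fitted log2 fold change of FGF10 was -3.42 ± 0.86 (SE), and -6.29 without AB42 GFP-positive replicate 1, where the other 2 AB42 libraries hold 0 counts and the value depends on the prior count. Between the fractions FGF10 was lower in GFP-positive cells after AB42, with 2 counts against 39 (14.7-fold lower, 95% counting interval 3.81 to 126, and a fitted log2 of -3.69 or, without that library, -6.56).

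**Figure D4:**
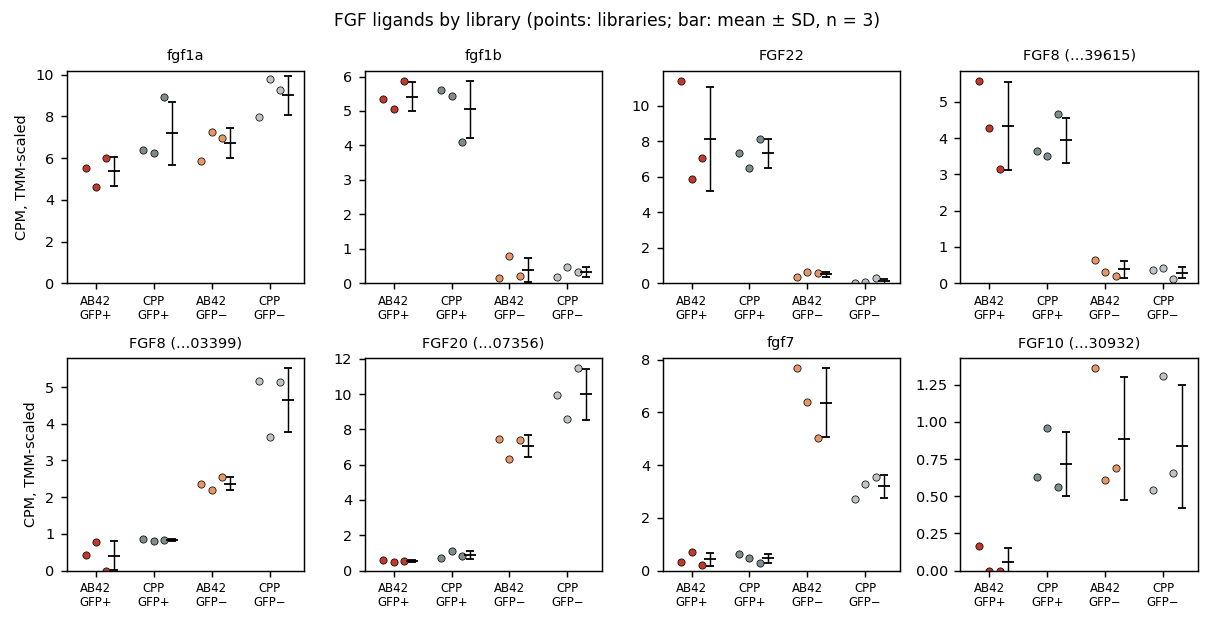
TMM-scaled CPM of 8 ligands in each library (points) with mean ± SD of the 3 libraries of a group (bars), on a linear axis from 0. FGF22, fgf1b and FGF8 of chromosome 1 (ENSDARG00000039615) are high in the GFP-positive groups, and FGF20, fgf7 and FGF8 of chromosome 13 (ENSDARG00000003399) in the GFP-negative ones.

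Of the 6 intracellular FGFs, which are not secreted and bind voltage-gated sodium channels of neurons, 5 were lower in GFP-positive cells after both injections, against 37.7% of all genes lower after AB42 and 35.9% after CPP. The sixth, FGF11, was higher there after AB42. FGF13 of chromosome 14 (ENSDARG00000035056, chr14:31843664-32063455) had 48.9, 44.7 and 45.9 CPM in the AB42 GFP-positive libraries and 59.4, 51.6 and 59.9 CPM in the CPP GFP-positive libraries. It had 83, 79.6 and 85.1 CPM in the AB42 GFP-negative libraries and 103, 108 and 111 CPM in the CPP GFP-negative libraries. FGF12 (ENSDARG00000027957, chr2:5675613-5769776) had 11.7, 12.4 and 14.5 CPM in the AB42 GFP-positive libraries and 20.4, 17.7 and 18.5 CPM in the CPP GFP-positive libraries. It had 26.5, 22.7 and 27.3 CPM in the AB42 GFP-negative libraries and 31, 35.5 and 35.9 CPM in the CPP GFP-negative libraries. For both genes the AB42 libraries lay below the CPP libraries in both fractions. In GFP-positive cells FGF12 gave log2 -0.56 ± 0.13 and FGF13 -0.29 ± 0.08 (SE, edgeR adjusted p = 0.000984 and 0.00624). In GFP-negative cells the values were -0.43 ± 0.11 and -0.38 ± 0.07 (adjusted p = 0.00146 and 3.93e-05). FGF13 of GFP-positive cells passed no longer with library totals in place of TMM (-0.19, adjusted p = 0.0626). Between the fractions after CPP FGF12 gave -0.86 ± 0.11 and FGF13 -0.92 ± 0.07, with -1.34 and -1.40 under library totals. Neuron markers fell alongside, with sums of 1028 to 1070 CPM after AB42 and 1336 to 1385 CPM after CPP in GFP-positive cells and 4855 to 5081 CPM after AB42 and 7159 to 7421 CPM after CPP in GFP-negative cells, and their part in these falls was not tested.

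FGF14 (ENSDARG00000040982, chr9:32027298-32104677) had 1.34, 1.11 and 0.978 CPM in the AB42 GFP-positive libraries and 0.948, 1.2 and 0.931 CPM in the CPP GFP-positive libraries. It had 8.96, 8.22 and 7.73 CPM in the AB42 GFP-negative libraries and 8.25, 9.57 and 7.27 CPM in the CPP GFP-negative libraries, a 7.16-fold and 8.03-fold lower level in GFP-positive cells after AB42 and CPP. Its AB42 and CPP libraries overlapped in both fractions. The low fgf11b had 0.417, 0 and 0 CPM in the AB42 GFP-positive libraries and 0.474, 1.2 and 0.559 CPM in the CPP GFP-positive libraries, with 5, 0 and 0 counts in the AB42 libraries. Its GFP-negative values were 4.52, 4.08 and 3.93 CPM in the AB42 GFP-negative libraries and 4.99, 5.09 and 5.63 CPM in the CPP GFP-negative libraries. It was lower in GFP-positive cells after both injections (log2 -4.74 ± 0.48 after AB42 and -2.79 ± 0.34 after CPP, SE), and fell after AB42 in GFP-positive cells (log2 fold change -2.28 ± 0.68, SE, edgeR adjusted p = 0.0147). That fall of fgf11b passed no longer without any 1 of AB42 GFP-positive replicates 2 and 3 and CPP GFP-positive replicate 2 (-1.84 to -1.64, adjusted p 0.06 to 0.13). Without AB42 GFP-positive replicate 1 the AB42 libraries held 0 counts and the fitted value, which then depends on the prior count, was -6.34, with -8.80 between the fractions after AB42. FGF13 of chromosome 10 averaged 4.68 ± 0.369 CPM in AB42 GFP-positive, 5.43 ± 1.74 in CPP GFP-positive, 30 ± 0.279 in AB42 GFP-negative and 31.3 ± 0.653 CPM in CPP GFP-negative cells, and was called only between the fractions (log2 -2.68 ± 0.15 after AB42 and -2.51 ± 0.15 after CPP). FGF11, at 2.58 ± 0.6 CPM in AB42 GFP-positive and 1.26 ± 0.31 CPM in AB42 GFP-negative cells, was higher in GFP-positive cells after AB42 (log2 1 ± 0.32, adjusted p = 0.00549) and gave -0.08 ± 0.31 after CPP (adjusted p = 0.83). Against CPP it gave log2 -0.74 ± 0.32 after AB42 in GFP-negative cells, without overlap (edgeR adjusted p = 0.0631). That value passed with library totals in place of TMM (-0.87, adjusted p = 0.0261). It also passed without any 1 of AB42 GFP-negative replicate 2 and CPP GFP-negative replicates 2 and 3 (-0.95 to -0.88, adjusted p 0.0466 to 0.0492).

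Glypicans, heparan sulphate proteoglycans held at the membrane by a lipid anchor, differed between the fractions gene by gene. The gene gpc5b (ENSDARG00000024588, chr22:15412483-15475034) had 32.3, 34.2 and 24 CPM in the AB42 GFP-positive libraries and 29.2, 34.8 and 27 CPM in the CPP GFP-positive libraries. In cells without GFP it had 0.143, 0.122 and 0 CPM in the AB42 GFP-negative libraries and 0.0907, 0.0688 and 0.109 CPM in the CPP GFP-negative libraries, from 2, 2 and 0 counts in the AB42 and 1, 1 and 2 counts in the CPP libraries. It showed the largest fraction difference of the members, 308-fold after AB42 and 302-fold after CPP (edgeR adjusted p = 4.66e-24 and 6.23e-24). The size and rank of this difference rest on those few GFP-negative counts, and no counting interval was computed for it. The gene passed the low-count filter only through GFP-positive libraries. GPC1, which starts 5801 bases downstream of gpc5b with no gene between, lay on the other side, with 35.9, 34.7 and 39 CPM in the AB42 GFP-positive libraries and 40, 39.3 and 36.2 CPM in the CPP GFP-positive libraries. It had 58.5, 58.4 and 56.2 CPM in the AB42 GFP-negative libraries and 64.8, 71 and 70.1 CPM in the CPP GFP-negative libraries. GPC4 and GPC3 are likewise adjacent on chromosome 14, 26650 bases apart, and opposite in the sort. GPC3 (ENSDARG00000032199, chr14:30837395-31125563) had 1.75, 1.5 and 0.543 CPM in the AB42 GFP-positive libraries and 2.53, 1.2 and 1.49 CPM in the CPP GFP-positive libraries. It had 16.3, 16.9 and 20.1 CPM in the AB42 GFP-negative libraries and 28.4, 25.8 and 23.6 CPM in the CPP GFP-negative libraries, and was 13.3-fold lower in GFP-positive cells after AB42 and 14.7-fold lower after CPP. GPC4 averaged 127 ± 5.64 CPM in AB42 GFP-positive, 126 ± 7.18 CPM in CPP GFP-positive, 11.2 ± 0.871 CPM in AB42 GFP-negative and 9.31 ± 1.26 CPM in CPP GFP-negative cells, 11.3-fold and 13.7-fold higher in GFP-positive cells after AB42 and CPP. GPC5 was higher as well (log2 2.74 ± 0.12 after AB42 and 2.40 ± 0.12 after CPP, SE), as was gpc2 at lower levels (0.81 ± 0.25 and 1.03 ± 0.25, the second 0.55 with library totals).

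After AB42 GPC3 and GPC1 fell in GFP-negative cells, with no overlap of the libraries: GPC3 gave log2 -0.54 ± 0.15 (SE, edgeR adjusted p = 0.0029) and GPC1 -0.25 ± 0.08 (adjusted p = 0.00841). The gene gpc1b had 110.1, 99 and 108 CPM in the AB42 GFP-positive libraries and 128, 124 and 121 CPM in the CPP GFP-positive libraries. It had 108, 102 and 109 CPM in the AB42 GFP-negative libraries and 120.3, 124 and 117 CPM in the CPP GFP-negative libraries. It fell a little in GFP-positive cells (log2 -0.24 ± 0.07, adjusted p = 0.00849) and in GFP-negative cells (log2 -0.18 ± 0.06, adjusted p = 0.0224). In GFP-positive cells gpc1b passed no longer with library totals in place of TMM (-0.14, adjusted p = 0.124). It did not hold either without any 1 of AB42 GFP-positive replicate 2 and CPP GFP-positive replicate 1 (-0.21 to -0.19, adjusted p 0.0521 to 0.0931). In GFP-negative cells gpc1b passed no longer without AB42 GFP-negative replicate 2 (-0.15, adjusted p = 0.117). Library totals gave -0.32 for gpc1b and -0.39 for GPC1 there. Between the fractions gpc1b gave 0.00 ± 0.07 after AB42 and 0.05 ± 0.06 after CPP with TMM, but -0.26 and -0.43 with library totals, both then called. The low gpc5c rose in GFP-negative cells, where it had 3.44, 2.37 and 5.31 CPM after AB42 and 1.99, 1.45 and 1.97 CPM after CPP (log2 fold change 1.03 ± 0.31, SE, edgeR adjusted p = 0.00762). The gpc5c rise passed no longer without any 1 of AB42 GFP-negative replicate 3 and CPP GFP-negative replicate 2 (0.65 to 0.87, adjusted p 0.0518 to 0.144). GPC4 gave 0.28 ± 0.11 in GFP-negative cells (adjusted p = 0.0524). It passed with the 5 CPM filter (0.28, adjusted p = 0.0451), with the replicate block (0.27, adjusted p = 0.0307) or without CPP GFP-negative replicate 2 (0.36, adjusted p = 0.0223). GPC1 was lower in GFP-positive cells after AB42 (log2 -0.66 ± 0.08, SE) and CPP (-0.83 ± 0.08, or -1.32 with library totals), and gpc5c was so after AB42 (-1.30 ± 0.33).

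FLRT proteins are leucine-rich membrane proteins that can bind FGF receptors. FLRT2 of chromosome 17 (ENSDARG00000097299, chr17:18997558-19003154) had 5.26, 6.56 and 5.11 CPM in the AB42 GFP-positive libraries and 13.4, 9.03 and 9.68 CPM in the CPP GFP-positive libraries. It had 26.3, 26 and 27.5 CPM in the AB42 GFP-negative libraries and 25.7, 24.4 and 28.4 CPM in the CPP GFP-negative libraries. Its AB42 libraries lay below its CPP libraries in GFP-positive cells, where it fell 1.88-fold (log2 fold change -0.91 ± 0.16, SE, edgeR adjusted p = 5.98e-05), and overlapped them in GFP-negative cells (log2 0.02 ± 0.12, adjusted p = 0.914). FLRT2 of chromosome 20 gave -0.31 ± 0.11 in GFP-positive cells (adjusted p = 0.0535). It passed with the 5 CPM filter (-0.31, adjusted p = 0.046) or with the replicate block (-0.31, adjusted p = 0.0418). FLRT1 gave -0.35 ± 0.15 after AB42 in GFP-negative cells, without overlap (edgeR adjusted p = 0.0578). FLRT1 passed with the 5 CPM filter, library totals, limma voom, the 2 groups alone, the replicate block or RLE size factors (-0.48 to -0.34, adjusted p 0.00966 to 0.0476). The same held without any 1 of AB42 GFP-positive replicate 2 and CPP GFP-negative replicate 1 (-0.41 to -0.35, adjusted p 0.038 to 0.0454). FLRT3, at 96.5 ± 5.58 CPM in AB42 GFP-positive, 94.9 ± 4.32 CPM in CPP GFP-positive, 87.3 ± 1.4 CPM in AB42 GFP-negative and 85.4 ± 5.22 CPM in CPP GFP-negative cells, gave 0.03 ± 0.07 and 0.03 ± 0.07 after AB42 in the GFP-positive and GFP-negative cells. FLRT1, which shares 424 exon bases with FERMT3 on the same strand, and the chromosome 17 FLRT2 gene were lower in GFP-positive cells after both injections (FLRT1 log2 -1.45 ± 0.17 after AB42 and -1.59 ± 0.17 after CPP, and FLRT2 -2.22 ± 0.15 and -1.29 ± 0.13).

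FRS adaptors dock the receptors to the RAS pathway. FRS2 of chromosome 4 (ENSDARG00000045873, chr4:2215469-2250418) had 8.01, 9.57 and 6.96 CPM in the AB42 GFP-positive libraries and 6.09, 4.8 and 5.59 CPM in the CPP GFP-positive libraries. It had 2.58, 2.37 and 2.42 CPM in the AB42 GFP-negative libraries and 3.63, 2.82 and 2.95 CPM in the CPP GFP-negative libraries. The AB42 libraries lay above the CPP libraries in GFP-positive cells, where it rose (log2 fold change 0.58 ± 0.19, SE, edgeR adjusted p = 0.0294), and in GFP-negative cells it gave -0.34 ± 0.23 (adjusted p = 0.257). The rise of this FRS2 gene passed no longer without any 1 of AB42 GFP-positive replicates 1 and 2 and CPP GFP-positive replicates 2 and 3 (0.45 to 0.60, adjusted p 0.0571 to 0.184). FRS2 of chromosome 25 averaged 39.7 ± 0.923 CPM in AB42 GFP-positive, 39.5 ± 1.07 CPM in CPP GFP-positive, 25.2 ± 2.73 CPM in AB42 GFP-negative and 21.7 ± 0.531 CPM in CPP GFP-negative cells. Both FRS2 genes had more transcript in GFP-positive cells after both injections (log2 0.66 to 1.74), and the low FRS3 was lower (-1.70 ± 0.27 after AB42 and -1.16 ± 0.25 after CPP). After CPP the chromosome 4 gene passed no longer with library totals in place of TMM (0.34, adjusted p = 0.141). FGFR1OP2, kept for its symbol alone, gave -0.30 ± 0.11 in GFP-positive and -0.14 ± 0.11 in GFP-negative cells after AB42 (adjusted p = 0.0628 and 0.308) and -0.29 ± 0.11 between the fractions after AB42, where it was called (with -0.55 under library totals and -0.44 without AB42 GFP-positive replicate 3). The call of FGFR1OP2 between the fractions passed no longer without any 1 of AB42 GFP-positive replicates 1 and 2 and AB42 GFP-negative replicate 3 (-0.27 to -0.20, adjusted p 0.0541 to 0.159). The uncalled FGFR1OP2 value of GFP-positive cells passed with every gene of at least 1 count (-0.32, adjusted p = 0.044), with limma voom (-0.32, adjusted p = 0.0485), with the replicate block (-0.30, adjusted p = 0.0302) or without AB42 GFP-positive replicate 3 (-0.45, adjusted p = 0.00497). Library totals put FRS2 of chromosome 25 at 0.40 after AB42 and 0.38 after CPP, in place of 0.66 and 0.86.

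Of the 9 feedback inhibitors 6 were higher in GFP-positive cells after both injections, against 36% of all genes tested after AB42 and 37.1% after CPP. SPRY2 (ENSDARG00000078308, chr1:4557535-4561637), a Sprouty inhibitor of receptor signalling to RAS, had 408, 404 and 408 CPM in the AB42 GFP-positive libraries and 417, 408 and 411 CPM in the CPP GFP-positive libraries. It had 44.6, 46.5 and 43.9 CPM in the AB42 GFP-negative libraries and 44.8, 34.3 and 37.7 CPM in the CPP GFP-negative libraries. SPRY4 (ENSDARG00000068732, chr21:44605076-44610590) had 348, 354 and 360.3 CPM in the AB42 GFP-positive libraries and 299.8, 299.8 and 291 CPM in the CPP GFP-positive libraries. It had 100.1, 95.8 and 93.6 CPM in the AB42 GFP-negative libraries and 72.7, 74.8 and 68.9 CPM in the CPP GFP-negative libraries. Both stood well above their GFP-negative levels, SPRY2 by 9.03-fold and 10.6-fold and SPRY4 by 3.67-fold and 4.12-fold after AB42 and CPP. SPRY4 rose after AB42 in both fractions without overlap, by log2 0.25 ± 0.06 in GFP-positive (SE, edgeR adjusted p = 0.000896) and 0.42 ± 0.06 in GFP-negative cells (adjusted p = 4.55e-07). SPRY2 rose in GFP-negative cells (log2 fold change 0.22 ± 0.07, SE, edgeR adjusted p = 0.0168) and gave -0.02 ± 0.06 in GFP-positive cells (adjusted p = 0.874). The SPRY2 rise passed no longer with library totals in place of TMM (0.09, adjusted p = 0.356) or in a fit of the 2 groups alone (0.21, adjusted p = 0.0591). Nor did it pass without any 1 of AB42 GFP-negative replicate 2 and CPP GFP-negative replicates 2 and 3 (0.11 to 0.20, adjusted p 0.0691 to 0.254). SPRY1 had 19.4, 21.5 and 17.4 CPM in the AB42 GFP-positive libraries and 21.7, 23.5 and 22 CPM in the CPP GFP-positive libraries. It had 8.39, 10 and 7.87 CPM in the AB42 GFP-negative libraries and 6.53, 6.47 and 6.34 CPM in the CPP GFP-negative libraries. It rose in GFP-negative cells (log2 fold change 0.45 ± 0.15, SE, edgeR adjusted p = 0.0145) and gave -0.20 ± 0.13 in GFP-positive cells, with its libraries all lower after AB42 (adjusted p = 0.304). The SPRY1 rise passed no longer with library totals in place of TMM (0.32, adjusted p = 0.0928). The threshold was missed too without AB42 GFP-negative replicate 2 (0.34, adjusted p = 0.119).

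IL17RD, a membrane inhibitor of FGF receptors also known as Sef, averaged 62 ± 5.96 CPM in AB42 GFP-positive, 60.5 ± 2.32 CPM in CPP GFP-positive, 5.11 ± 0.488 CPM in AB42 GFP-negative and 4.61 ± 1.05 CPM in CPP GFP-negative cells (SD, n = 3), 12.1-fold and 13.3-fold higher in GFP-positive cells after AB42 and CPP. SPRED1, which restrains RAS activation, averaged 176 ± 16.3 CPM, 181 ± 3.17 CPM, 56.4 ± 2.44 CPM and 47.2 ± 17.2 CPM in the same order. Its 3 CPP GFP-negative libraries spread widely, at 30, 64.4 and 47.2 CPM. In GFP-negative cells it gave 0.24 ± 0.12 after AB42 (adjusted p = 0.126). It passed with every gene of at least 1 count (0.25, adjusted p = 0.00499) or without CPP GFP-negative replicate 2 (0.49, adjusted p = 0.000494). DUSP6, the phosphatase that inactivates ERK and a common readout of FGF signalling, had 14.4, 16 and 13.8 CPM in the AB42 GFP-positive libraries and 13.5, 13.6 and 14.7 CPM in the CPP GFP-positive libraries. It had 11.6, 12.2 and 12.5 CPM in the AB42 GFP-negative libraries and 12.7, 9.98 and 13.6 CPM in the CPP GFP-negative libraries. Its libraries overlapped between AB42 and CPP in both fractions, with log2 0.09 ± 0.14 in GFP-positive and 0.00 ± 0.14 in GFP-negative cells (adjusted p = 0.729 and 1).

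SPRED3 (ENSDARG00000040358, chr18:44603340-44617537) was the inhibitor of the GFP-negative side, with 0.584, 0.237 and 0.869 CPM in the AB42 GFP-positive libraries and 1.42, 0.719 and 1.58 CPM in the CPP GFP-positive libraries. It had 7.03, 7.91 and 8.07 CPM in the AB42 GFP-negative libraries and 9.07, 8.33 and 8.25 CPM in the CPP GFP-negative libraries. It was 14.1-fold lower in GFP-positive cells after AB42 and 6.89-fold lower after CPP, and fell after AB42 in GFP-positive cells although the libraries overlapped (log2 fold change -1.19 ± 0.42, SE, edgeR adjusted p = 0.0422). SPRED3 passed no longer with library totals in place of TMM (-1.09, adjusted p = 0.0623), with limma voom (-1.21, adjusted p = 0.0865) or in a fit of the 2 groups alone (-1.14, adjusted p = 0.102). The call ended as well without any 1 of AB42 GFP-positive replicates 1 and 2, CPP GFP-positive replicates 1 and 3, AB42 GFP-negative replicate 3 and CPP GFP-negative replicates 1 and 2 (-1.26 to -0.78, adjusted p 0.0582 to 0.259). SPRED2 (ENSDARG00000008372, chr13:5450552-5808557) had 10, 10.9 and 10.1 CPM in AB42 GFP-negative and 13.1, 13.6 and 14.4 CPM in CPP GFP-negative libraries. Its paralogue spred2a had 6.6, 6.76 and 6.28 CPM in AB42 GFP-negative and 8.34, 9.64 and 10.2 CPM in CPP GFP-negative libraries. Both fell in GFP-negative cells without overlap, SPRED2 at log2 -0.41 ± 0.13 (SE, edgeR adjusted p = 0.0148) and spred2a at -0.53 ± 0.16 (adjusted p = 0.00727). The fall of SPRED2 passed no longer without any 1 of AB42 GFP-negative replicate 1 and CPP GFP-negative replicate 3 (-0.39 to -0.37, adjusted p 0.051 to 0.0633). In GFP-positive cells SPRED2 had 11.4, 9.72 and 9.24 CPM after AB42 and 13, 11.2 and 12.4 CPM after CPP (log2 -0.27 ± 0.14, adjusted p = 0.208). There spred2a had 12.9, 13.4 and 10.2 CPM after AB42 and 11.5, 14.1 and 11.1 CPM after CPP (log2 0.00 ± 0.15). Between the fractions spred2a was called higher in GFP-positive cells after AB42 (log2 0.90 ± 0.16, adjusted p = 4.08e-06) and after CPP (0.38 ± 0.15, adjusted p = 0.0257). After CPP spred2a passed no longer with DESeq2 (0.31, adjusted p = 0.0925), with library totals in place of TMM (-0.10, adjusted p = 0.548), in a fit of the 2 groups alone (0.33, adjusted p = 0.057) or with RLE size factors (0.31, adjusted p = 0.0613). The call was also lost without any 1 of CPP GFP-positive replicate 2, AB42 GFP-negative replicate 3 and CPP GFP-negative replicates 1 and 2 (0.22 to 0.30, adjusted p 0.0783 to 0.227).

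All 4 ETS factors, the transcription factors at the end of the pathway, were called after AB42 in both fractions. Of all genes tested 18.7% were called in GFP-positive and 38.2% in GFP-negative cells. In both fractions 2314 of the 20237 genes were called, and 528 of these moved in opposite directions. No other role had every gene called in both, but this one has only 4 genes, and ETV4 moved in opposite directions. The factor etv5a (ENSDARG00000069763, chr9:22820918-22838182) had 129, 141 and 136 CPM in the AB42 GFP-positive libraries and 166, 166 and 176 CPM in the CPP GFP-positive libraries. It had 154, 148 and 152 CPM in the AB42 GFP-negative libraries and 382, 398 and 416 CPM in the CPP GFP-negative libraries. The CPP GFP-negative libraries stood above all others, and the other 3 groups lay between 129 and 176 CPM. It fell 1.25-fold in GFP-positive (log2 fold change -0.32 ± 0.06, SE, edgeR adjusted p = 0.000102) and 2.64-fold in GFP-negative cells (log2 fold change -1.40 ± 0.06, SE, edgeR adjusted p = 7.8e-21). Its paralogue etv5b (ENSDARG00000044511, chr6:13902582-13910699) had 98.2, 102 and 99.9 CPM in the AB42 GFP-positive libraries and 119, 128 and 116 CPM in the CPP GFP-positive libraries. It had 106, 97.8 and 99.2 CPM in the AB42 GFP-negative libraries and 137, 137 and 147 CPM in the CPP GFP-negative libraries. It fell in GFP-positive (log2 fold change -0.28 ± 0.07, SE, edgeR adjusted p = 0.00166) and in GFP-negative cells (log2 fold change -0.48 ± 0.06, SE, edgeR adjusted p = 1.12e-07).

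ETV1 (ENSDARG00000101959, chr15:34315530-34356315) had 14.5, 16.3 and 13 CPM in the AB42 GFP-positive libraries and 17.9, 24.3 and 19.9 CPM in the CPP GFP-positive libraries. It had 115, 108 and 111 CPM in the AB42 GFP-negative libraries and 161, 176 and 161 CPM in the CPP GFP-negative libraries. It was 7.58-fold lower in GFP-positive cells after AB42 and 7.99-fold lower after CPP, and fell after AB42 in both fractions, at log2 -0.49 ± 0.11 in GFP-positive (SE, edgeR adjusted p = 0.000854) and -0.57 ± 0.08 in GFP-negative cells (adjusted p = 1.03e-07). ETV4 (ENSDARG00000018303, chr12:27444735-27477334) had 25.8, 22.5 and 26.7 CPM in the AB42 GFP-positive libraries and 32.5, 30.7 and 38 CPM in the CPP GFP-positive libraries. It had 38.4, 41.2 and 40.9 CPM in the AB42 GFP-negative libraries and 23.7, 23.7 and 27.9 CPM in the CPP GFP-negative libraries. Its libraries did not overlap between AB42 and CPP in either fraction, but the directions were opposite: it fell in GFP-positive (log2 fold change -0.43 ± 0.11, SE, edgeR adjusted p = 0.00276) and rose in GFP-negative cells (log2 fold change 0.67 ± 0.10, SE, edgeR adjusted p = 1.06e-06). Between the fractions it was lower in GFP-positive cells after AB42 (log2 -0.69 ± 0.10) and higher after CPP (log2 0.42 ± 0.10), and the second turned to -0.07 with library totals. An opposite-strand gene shares 130 bases of its exons. Between the fractions etv5a was lower in GFP-positive cells after AB42 (log2 -0.16 ± 0.06, adjusted p = 0.0164) and after CPP (log2 -1.24 ± 0.06, adjusted p = 2.07e-20). After AB42 etv5a passed no longer without any 1 of AB42 GFP-positive replicate 1 and AB42 GFP-negative replicate 1 (-0.14 to -0.12, adjusted p 0.0639 to 0.107). With library totals this etv5a value was -0.41. The factor etv5b gave -0.02 ± 0.07 after AB42 (adjusted p = 0.843). This value passed with library totals in place of TMM (-0.27, adjusted p = 0.000449). It was lower after CPP (-0.21 ± 0.06, adjusted p = 0.00326), at -0.32 without CPP GFP-negative replicate 2 and -0.69 with library totals.

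**Figure D5:**
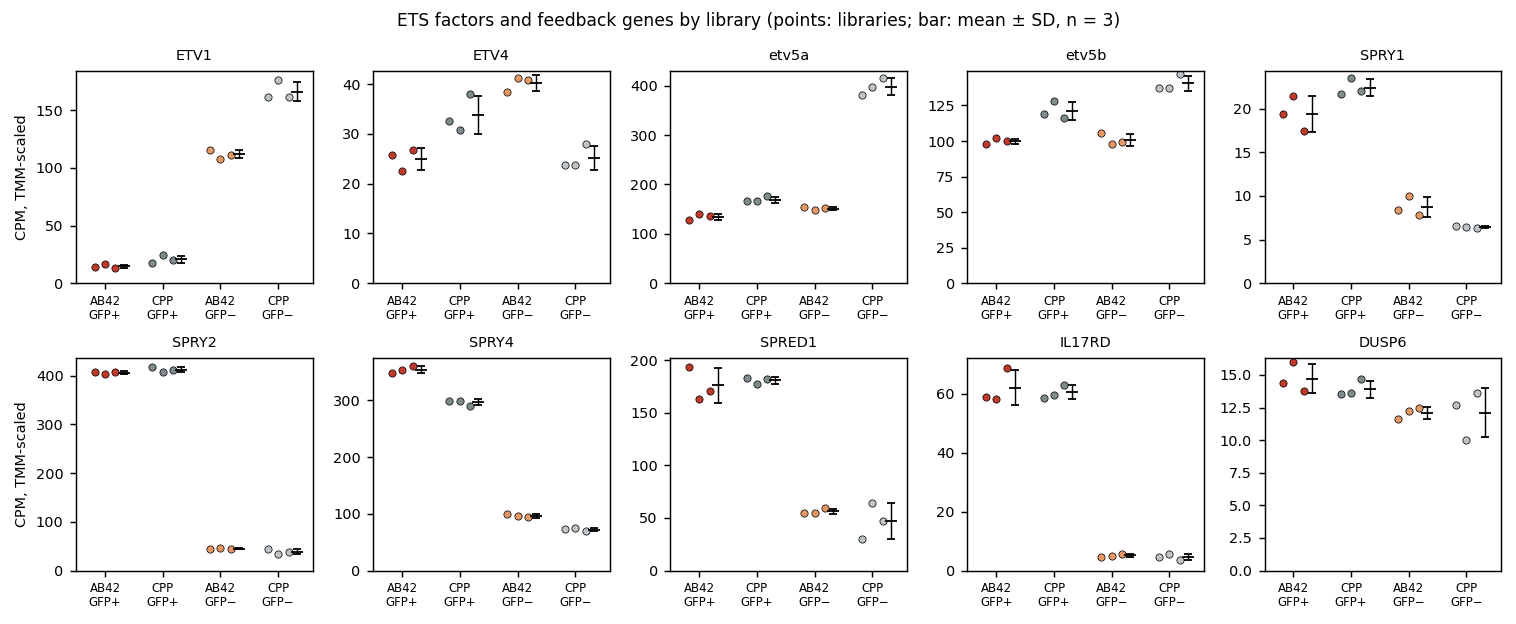
TMM-scaled CPM of the 4 ETS factors and 6 feedback inhibitors in each library (points) with mean ± SD of the 3 libraries of a group (bars), on a linear axis from 0. After AB42 etv5a is lower in both fractions and most of all in GFP-negative cells, ETV4 is lower in GFP-positive and higher in GFP-negative cells, and SPRY4 is higher in both.

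Whether the AB42 effect differed between the fractions was tested as an interaction, the GFP-positive effect minus the GFP-negative effect. Of 61 members 2 (3.28%) were higher and 5 (8.2%) lower, against 5.46% and 16.5% of all genes tested. Together 7 (11.5%) were called, against 21.9% of all genes, with medians of -0.16 for members and -0.08 for all genes on the log2 scale. The 2 higher were etv5a (1.08 ± 0.08, SE, edgeR adjusted p = 9.76e-13) and FRS2 of chromosome 4 (0.92 ± 0.30, adjusted p = 0.0226). The 5 lower were ETV4 (-1.10 ± 0.15, adjusted p = 2.65e-07), FLRT2 of chromosome 17 (-0.93 ± 0.20, adjusted p = 0.000593), SPRY1 (-0.65 ± 0.19, adjusted p = 0.0128), FGF10 of chromosome 21 (-3.47 ± 1, adjusted p = 0.00952) and FGFR2 (-0.48 ± 0.17, adjusted p = 0.0445). ETV4, etv5a and FLRT2 kept their call in every alternative run. FGFR2 passed no longer with DESeq2 (-0.45, adjusted p = 0.0521), with library totals in place of TMM (-0.25, adjusted p = 0.34), with limma voom (-0.49, adjusted p = 0.12) or with RLE size factors (-0.44, adjusted p = 0.0657). It did not hold either without any 1 of AB42 GFP-positive replicates 1, 2 and 3, CPP GFP-positive replicates 1 and 2, AB42 GFP-negative replicates 1 and 3 and CPP GFP-negative replicates 1 and 3 (-0.49 to -0.29, adjusted p 0.0575 to 0.278). SPRY1 passed no longer with library totals in place of TMM (-0.42, adjusted p = 0.123). Nor did it pass without AB42 GFP-negative replicate 2 (-0.53, adjusted p = 0.0651). FRS2 passed no longer without any 1 of AB42 GFP-positive replicate 2 and CPP GFP-positive replicate 2 (0.79 to 0.83, adjusted p 0.0549 to 0.0786). FGF10 passed no longer without AB42 GFP-positive replicate 2 (-2.87, adjusted p = 0.0535). Without AB42 GFP-positive replicate 1, which holds both AB42 counts, the FGF10 value was -6.34. Library totals moved the median of all genes by 0.23 and gave 10 higher and 3 lower members. Of the 20237 genes tested they gave 3248 higher and 2109 lower, against 1105 and 3334 with TMM. The higher count of members was 1 without AB42 GFP-positive replicate 2 and 4 without CPP GFP-negative replicate 1. Their lower count was 3 without AB42 GFP-positive replicate 2. Of the members not called here 13 passed under at least 1 alternative, a count not made over all genes. Of these, etv5b gave 0.20 ± 0.09 (adjusted p = 0.122), SPRY2 -0.24 ± 0.10 (adjusted p = 0.0716), fgf11b -1.94 ± 0.74 (adjusted p = 0.0542) and FGF22 -1.68 ± 0.71 (adjusted p = 0.087). The etv5b value passed with DESeq2 (0.23, adjusted p = 0.0482), with library totals in place of TMM (0.43, adjusted p = 0.000669) or without any 1 of CPP GFP-negative replicates 1 and 2 (0.28 to 0.29, adjusted p 0.0237 to 0.0344). SPRY2 passed with every gene of at least 1 count (-0.26, adjusted p = 0.0353), with the replicate block (-0.24, adjusted p = 0.0202) or without CPP GFP-negative replicate 1 (-0.27, adjusted p = 0.0335). The fgf11b value passed with every gene of at least 1 count (-1.96, adjusted p = 0.0295), with limma voom (-2.54, adjusted p = 0.0194), with the replicate block (-1.94, adjusted p = 0.0499) or without any 1 of AB42 GFP-positive replicate 1 and CPP GFP-positive replicates 1 and 3 (-6.01 to -2.09, adjusted p 0.00173 to 0.0469). FGF22 passed without any 1 of AB42 GFP-positive replicate 1 and CPP GFP-negative replicate 3 (-3.26 to -2.03, adjusted p 0.0228 to 0.0294).

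The other 9 of the 13 uncalled members had log2 interaction values (± SE) that other settings moved past the threshold. The glypicans GPC1 and GPC5 gave 0.17 ± 0.11 (adjusted p = 0.314) and 0.34 ± 0.18 (adjusted p = 0.176), the carrier fgfbp3 0.15 ± 0.11 (adjusted p = 0.409) and the decoy receptor fgfrl1b 1.79 ± 0.74 (adjusted p = 0.0785). Among the inhibitors SPRED1 gave -0.28 ± 0.17 (adjusted p = 0.257), spred2a 0.53 ± 0.22 (adjusted p = 0.0808) and SPRED3 -1.03 ± 0.46 (adjusted p = 0.106). The intracellular FGF11 gave 1.08 ± 0.44 (adjusted p = 0.0783) and FGF13 of chromosome 14 0.09 ± 0.11 (adjusted p = 0.612). Library totals alone put FGF11 (1.30), FGF13 of chromosome 14 (0.32), fgfbp3 (0.37) and GPC1 (0.40) past the threshold. GPC5 passed with library totals in place of TMM (0.57, adjusted p = 0.0217) or without CPP GFP-negative replicate 3 (0.49, adjusted p = 0.0487). fgfrl1b passed with library totals in place of TMM (2.01, adjusted p = 0.0436) or without any 1 of CPP GFP-positive replicate 2 and AB42 GFP-negative replicate 1 (2.16 to 2.90, adjusted p 0.0235 to 0.0347). SPRED1 passed with every gene of at least 1 count (-0.30, adjusted p = 0.025) or without CPP GFP-negative replicate 2 (-0.48, adjusted p = 0.0113). spred2a passed with library totals in place of TMM (0.76, adjusted p = 0.013) or without any 1 of AB42 GFP-positive replicate 3, CPP GFP-positive replicate 2 and CPP GFP-negative replicate 1 (0.63 to 0.67, adjusted p 0.0328 to 0.0391). SPRED3 passed without any 1 of AB42 GFP-positive replicate 3 and CPP GFP-positive replicate 2 (-1.42 to -1.32, adjusted p 0.0366 to 0.0457).

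Genes around the members were described from 3 lists, by counts only. The RAS and MAP kinase relay (39 genes) changed in 8 genes in GFP-positive cells (3 higher, 5 lower, 20.5%, against 18.7% of all genes) and in 22 in GFP-negative cells (14 higher, 8 lower, 56.4%, against 38.2%), with medians of 0.04 and 0.15. In GFP-positive cells kras (0.52 ± 0.12, SE), ARAF (0.36 ± 0.11) and the adaptor CRKL (0.24 ± 0.07) rose on the log2 scale, and the kinase MAP2K1 (-0.44 ± 0.09), the phosphatase ptpn11b (-0.50 ± 0.11) and one of the KSR1 scaffold genes (-1.02 ± 0.27) fell. In GFP-negative cells the adaptors shc2 (1.80 ± 0.25) and grb2b (0.50 ± 0.08) and the ubiquitin ligase CBL (0.51 ± 0.09) rose, and MAP2K1 (-0.56 ± 0.07), MAP2K2 (-0.60 ± 0.08) and ptpn11b (-0.61 ± 0.09) fell. Without CPP GFP-positive replicate 1 the relay had 1 higher gene in GFP-positive cells, and without AB42 GFP-positive replicate 1 it had 3 lower. With library totals the relay had 5 higher genes in GFP-positive and 8 higher genes in GFP-negative cells.

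Heparan sulphate and extracellular modulator genes (35) changed in 4 genes in GFP-positive cells (2 higher, 2 lower, 11.4%, against 18.7% of all genes) and in 16 in GFP-negative cells (5 higher, 11 lower, 45.7%, against 38.2%), with medians of -0.05 and -0.20. The syndecan sdc4 rose in both fractions (log2 0.45 ± 0.05 in GFP-positive and 1.29 ± 0.05 in GFP-negative cells, SE, edgeR adjusted p = 1.7e-09 and 3.31e-22). The sulphotransferase HS2ST1 rose (0.43 ± 0.13) and the sulphatase SULF1 (-0.49 ± 0.10) and the epimerase GLCE (-0.45 ± 0.14) fell in GFP-positive cells. In GFP-negative cells UGDH (0.80 ± 0.13) and perlecan HSPG2 (0.89 ± 0.18) rose, and the sulphatase sulf2a (-0.67 ± 0.11), agrin AGRN (-0.42 ± 0.08) and the chain polymerase ext1c (-0.49 ± 0.10) fell. In GFP-positive cells 1 higher gene was left without any 1 of AB42 GFP-positive replicate 1 and CPP GFP-positive replicates 1 and 2, and 1 lower gene without any 1 of AB42 GFP-positive replicates 1 and 3 and CPP GFP-positive replicate 1. With library totals this list had 4 higher and 1 lower in GFP-positive and 18 lower in GFP-negative cells.

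MAP kinase-inducible genes and phosphatases (24 genes) changed in 8 genes in GFP-positive cells (4 higher, 4 lower, 33.3%, against 18.7% of all genes) and in 16 in GFP-negative cells, all 16 higher (66.7%, against 20.9% of all genes higher), with medians of 0.02 and 0.52. The count of lower genes in GFP-negative cells was 0 with edgeR, DESeq2 and limma voom, and 0 at an unadjusted p under 0.05. FOSL1, a subunit of AP-1, rose in both fractions (0.57 ± 0.06 in GFP-positive and 1.68 ± 0.07 in GFP-negative cells, log2 and SE). In GFP-positive cells mych (0.31 ± 0.05) and fosl1b (1.70 ± 0.31) rose, and the phosphatases DUSP1 (-0.37 ± 0.05) and DUSP2 (-0.40 ± 0.06) and the early gene ier2a (-0.34 ± 0.06) fell. The phosphatase DUSP5 (0.88 ± 0.06) and ier2a (0.86 ± 0.06) rose in GFP-negative cells. In the interaction 15 of the 24 genes were lower, against 16.5% of all genes. With library totals 7 genes of the list were higher in GFP-positive cells. Of its 26 symbols 5 are also in the dissociation stress list, and 1 of these, fosab, matched no gene in either list. The dissociation stress sum was 37661 to 38271 CPM after AB42 and 32265 to 32831 CPM after CPP in GFP-positive cells. In GFP-negative cells that sum was 26364 to 27718 CPM after AB42 and 15693 to 16013 CPM after CPP. Its part in these changes was not tested. Among the members in the same GFP-negative cells, ETV4, SPRY1, SPRY2 and SPRY4 rose, and etv5a, etv5b, ETV1, SPRED2 and spred2a fell. The other 4 feedback inhibitors, DUSP6, IL17RD, SPRED1 and SPRED3, were not called there.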

How the data were processed

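RNA of cells sorted from brains of Tg(her4.1:EGFP) fish was turned into amplified cDNA with a poly-dT primer and sequenced as 75-base single reads, per the labels' protocols. The authors deposited whole-number read counts per Ensembl gene with each gene's position and summed exon length, per the file headers. BWA 0.7.12, featureCounts and the build GRCz10 are named in the submitters' processing notes, and the strand setting, the annotation release and the treatment of reads with several matches are not given there or in the labels. Symbols came from a gene name table that matched 26121 of 31953 identifiers and mixes human-style and zebrafish symbols. The counts were tested with edgeR 4.0.16 (R 4.3.3) on 20237 genes kept by its expression filter, with TMM scaling, 1 model of 4 group means over 12 libraries, the quasi-likelihood test and Benjamini-Hochberg adjustment within each of 5 contrasts, with calls at an adjusted p of 0.05. The SE of a log2 fold change was its size divided by the root of the F statistic. Counting intervals are exact 95% intervals of a ratio of summed counts, and they and the floor of 3 counts cover counting error only, as the amplified reads carry no molecular identifiers. Libraries of a group differed by more than sampling noise (chi-square per degree of freedom 2.1 to 4.84), so all 12 were kept. The members and the gene lists were chosen with earlier results of these data known. Values in every library were given for members called in an AB42 contrast or in their difference at a group mean of 5 CPM or more, for ligands, receptors and binding proteins at that mean, and for the 6 largest rises and 6 largest falls between the fractions after CPP at that mean in the higher group. DUSP6, SPRED1, FGF8, FGF10, fgfbp2a and gpc5c were given in more detail after their values were seen. Of each list the 3 genes of smallest p in each direction were named. Alternatives were DESeq2 1.42.0, limma 3.58.1 (voom), RLE factors, library totals, a 5 CPM filter, every gene with a count, a fit of the compared groups alone, the replicate number as a block, and each library left out in turn. The fit was checked on simulated counts.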

Additional observations from a re-analysis of the deposited data

Results flagged for a closer look

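For 7 of 61 members the AB42 effect differed between the fractions by the interaction test of the edgeR model (log2, GFP-positive minus GFP-negative, ± SE). That is 11.5% of the members tested, against 21.9% of all genes tested. The factor etv5a gave 1.08 ± 0.08 (adjusted p = 9.76e-13), from effects of -0.32 ± 0.06 in GFP-positive and -1.40 ± 0.06 in GFP-negative cells, and so fell in both. ETV4 gave -1.10 ± 0.15 (adjusted p = 2.65e-07), from -0.43 ± 0.11 in GFP-positive and 0.67 ± 0.10 in GFP-negative cells, with opposite signs. FLRT2 (ENSDARG00000097299) gave -0.93 ± 0.20 (adjusted p = 0.000593), from -0.91 ± 0.16 in GFP-positive and 0.02 ± 0.12 in GFP-negative cells. SPRY1 gave -0.65 ± 0.19 (adjusted p = 0.0128), from -0.20 ± 0.13 in GFP-positive and 0.45 ± 0.15 in GFP-negative cells. It passed no longer with library totals in place of TMM (-0.42, adjusted p = 0.123). The call was also lost without AB42 GFP-negative replicate 2 (-0.53, adjusted p = 0.0651). FRS2 (ENSDARG00000045873) gave 0.92 ± 0.30 (adjusted p = 0.0226), from 0.58 ± 0.19 in GFP-positive and -0.34 ± 0.23 in GFP-negative cells. It passed no longer without any 1 of AB42 GFP-positive replicate 2 and CPP GFP-positive replicate 2 (0.79 to 0.83, adjusted p 0.0549 to 0.0786). FGFR2 gave -0.48 ± 0.17 (adjusted p = 0.0445), from -0.31 ± 0.08 in GFP-positive and 0.17 ± 0.16 in GFP-negative cells, and was lost in 4 other settings and without 9 of the 12 libraries, as given above. FGF10 (ENSDARG00000030932) gave -3.47 ± 1 (adjusted p = 0.00952), from -3.42 ± 0.86 in GFP-positive and 0.05 ± 0.45 in GFP-negative cells, on 2 counts in the AB42 and 26 in the CPP GFP-positive libraries. It passed no longer without AB42 GFP-positive replicate 2 (-2.87, adjusted p = 0.0535). The cause of these differences was not tested.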

How the results depend on the processing

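Of the called members 9 of 17 kept their call in every alternative run in GFP-positive cells, 15 of 25 in GFP-negative cells, 48 of 50 between the fractions after AB42, 45 of 50 after CPP, and 3 of 7 in the difference. Neither these counts nor the ranges without 1 library were computed over all genes, so the members cannot be compared with other genes there. Library totals in place of TMM gave 8 lower members in GFP-positive cells and 10 higher and 3 lower in the difference. Over all genes tested these totals gave 1769 lower in GFP-positive cells, against 2523 with TMM. In the difference they gave 3248 higher and 2109 lower genes, against 1105 and 3334 with TMM. They reversed 5 called or uncalled fraction values after CPP, with ETV4 at -0.07, FLRT2 (ENSDARG00000079355) at -0.27, FLRT3 at -0.33, gpc1b at -0.43 and spred2a at -0.10. They shifted the median of all genes by 0.10 and -0.13 in the GFP-positive and GFP-negative cells. Testing every gene with a count gave 9 lower members in the difference. With 1 library left out, the counts ranged from 2 to 4 higher and 9 to 13 lower members in GFP-positive cells, 6 to 10 higher and 13 to 17 lower in GFP-negative cells, and 1 to 4 higher and 3 to 6 lower in the difference. For the lists the alternatives were chosen after seeing the data. With library totals the relay had 5 higher genes in GFP-positive and 8 in GFP-negative cells, the matrix list 4 higher and 1 lower in GFP-positive and 18 lower in GFP-negative cells, and the inducible list 7 higher in GFP-positive cells. With 1 library left out the relay ranged from 1 to 4 higher and 3 to 5 lower genes and the matrix list from 1 to 3 higher and 1 to 3 lower in GFP-positive cells. Same-numbered libraries did not deviate together (correlation of their deviations from the group means -0.02 to 0.07), so the numbers were not taken as pairs. With the replicate block the counts were 4 higher and 15 lower members in GFP-positive cells, 11 and 16 in GFP-negative cells, 29 and 23 between the fractions after AB42, 29 and 21 after CPP, and 2 and 7 in the difference, and the matrix list had 4 lower genes in GFP-positive cells. The causes were not tested. Members under 1 CPM in a group rest on few counts, and differences there were often not detectable at this depth.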
